A study of Mus musculus with 3 samples.

Results

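A set of 10 gene spans were examined as ribosomal RNA loci or as loci suspected of carrying sequence like ribosomal RNA: Rn18s-rs5, n-R5s109, Gm15564, Lars2, Cmss1, Filip1l, Gm19951, Gm36876, Mir6240 and Mir6236. They were chosen by their deposited peaks, which scored high or came from every caller, so their peak numbers, scores and list membership are given below as a description with no test. A peak counted as a member when its midpoint lay in the RefSeq span of a listed gene in mm10, on either strand. This gave 82 of the 6911 peaks of the series at 9 distinct loci, because the spans of Cmss1 and Filip1l overlap and held the same 8 peaks.

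The peaks come from AGO2 HITS-CLIP of P19 cells, a mouse embryonal carcinoma stem cell line. In this assay ultraviolet light joins RNA to the proteins that touch it, an antibody (here clone 2D4) recovers AGO2, and the RNA that comes with it is read by sequencing. The 3 libraries were 1 group, with no treated, control or input group. Libraries were size-selected for inserts of 20 to 50 nt, and the values were 4 peak lists of the series as a whole, made by the callers CIMS, Piranha, Pyicoclip and PIPE-CLIP, so neither a depth nor a spread between libraries could be given. The lists come from the same libraries and are not replicates of each other. Of 13 pluripotency genes checked, 4 held a peak (Lin28a, Lefty1, Lin28b and Pou5f1), against 9.77% of all protein-coding genes. A peak list shows RNA recovered in the assay and not expression.

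Ribosomes are built on ribosomal RNAs, the most abundant RNAs of a cell. RNA polymerase I transcribes a long precursor that is cut in the nucleolus into the 18S RNA of the small subunit and the 5.8S and 28S RNAs of the large subunit, while RNA polymerase III transcribes the separate 5S RNA. The genes of both kinds stand in repeated, nearly identical copies, and pieces of them are scattered through the genome, so a short read is hard to place on a single copy. AGO2, the Argonaute protein that holds a microRNA on its target RNA, works mostly in the cytoplasm, where ribosomal RNA is plentiful, and ribosomal fragments are a familiar part of CLIP libraries.

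The label was checked against the annotation. Only n-R5s109, a 5S gene, is typed as rRNA in the RefSeq table. Rn18s-rs5, an 18S-related sequence, is typed as a pseudogene, Gm15564, Gm19951 and Gm36876 as long non-coding RNA genes, Mir6240 and Mir6236 as microRNA genes, and Lars2, Cmss1 and Filip1l as protein-coding genes. No sequence of Rn18s-rs5, of n-R5s109 or of ribosomal RNA was used here, so likeness to ribosomal RNA was not tested.

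The microRNA loci and a start site of Gm15564 are the members whose peaks fall on sequence in the RefSeq tables (GRCm38.p6, the coordinates of mm10). Mature sequences are shown first, 5′ to 3′, with the seed (bases 2 to 8) in capitals, because the seed is the part of a microRNA that pairs with targets.
mmu-miR-6240: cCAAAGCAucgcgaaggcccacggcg
mmu-miR-6236: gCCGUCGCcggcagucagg
The seeds differ from each other. Among 1738 mature sequences in the table, the seed of mmu-miR-6240 occurred in 1 other, mmu-miR-330-3p, and that of mmu-miR-6236 in no other. G and C made up 69.2% of mmu-miR-6240 and 78.9% of mmu-miR-6236, against a median of 52.2% over all mature sequences.

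The Mir6240 hairpin lies on the plus strand at chr5:114851948-114852064, and the capitals mark the bases under peaks of all 4 lists.
Mir6240 hairpin: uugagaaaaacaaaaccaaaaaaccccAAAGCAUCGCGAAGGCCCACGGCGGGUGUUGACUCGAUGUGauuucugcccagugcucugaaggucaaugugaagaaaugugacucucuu
These capitals are 41 bases, the width of the CIMS peak, and run past the 3′ end of the mature sequence. No hairpin of Mir6236 was used.

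The first 50 transcribed bases of the Gm15564 start at position 35981849 lie on the minus strand at chr16:35981800-35981849, with the bases under a peak in capitals.
Gm15564 first bases: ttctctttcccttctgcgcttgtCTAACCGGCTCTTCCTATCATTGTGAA
The Pyicoclip peak, which has no strand, covered 27 of these 50 bases, and its edge lay 23 nt from this start. No stranded peak reached these bases. Another start, at 35981847, lay 21 nt from the peak. The outermost start, at 35983329, lay 1503 nt away and had no peak over its window. The other 5 members with start-site windows in the tables had no peak over any of them.

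All 10 spans held a peak in Piranha, Pyicoclip and PIPE-CLIP, and 7 also held one in CIMS, so 7 were in all 4 lists and 3 (n-R5s109, Gm15564 and Mir6236) in 3. Over all 49980 annotated spans, 1.73% held a Piranha peak, 2.62% a Pyicoclip peak, 3.55% a PIPE-CLIP cluster and 0.172% a CIMS peak, and 0.066% held peaks of all 4. Presence in the lists helped to choose the members, so nothing is read from the difference. The members made up 24 of 169 CIMS peaks, which is 14.2% (95% Wilson interval 9.73 to 20.3). In Piranha they were 26 of 1417 (1.83%, 1.26 to 2.67), in Pyicoclip 15 of 2068 (0.725%, 0.440 to 1.19) and in PIPE-CLIP 17 of 3257 (0.522%, 0.326 to 0.834). The intervals cover counting error only, and peaks of a span are not independent of each other. Rn18s-rs5 alone gave 15 of the 24 CIMS peaks.

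**Figure D1:**
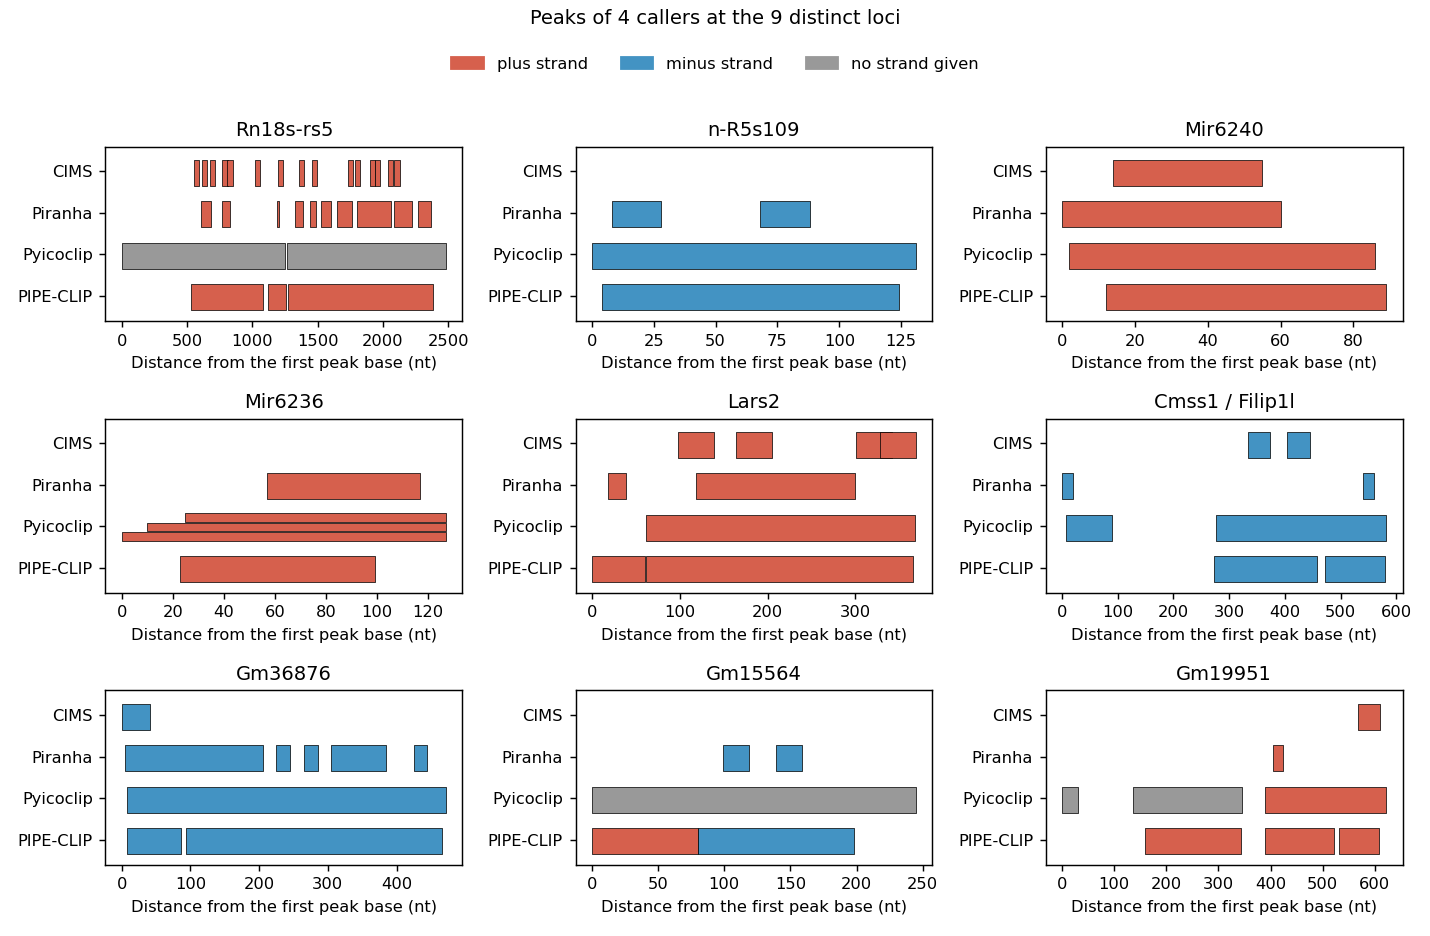
Peaks of the 4 callers at the 9 distinct loci. The x axis is the distance in nt from the first peak base of the locus, each bar is a peak, and colour gives its strand; the 9 loci run from 89 nt at Mir6240 to 2484 nt at Rn18s-rs5, and CIMS has no bar at n-R5s109, Mir6236 and Gm15564.

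Rn18s-rs5 (gene 110183, chromosome 17, 39846354 to 39848202) was covered almost from end to end. It is named for the 18S RNA of the small subunit. Its span is 1849 nt, and Pyicoclip peaks covered 99.1% of it, PIPE-CLIP clusters 95.5%, Piranha peaks 50.9% and CIMS peaks 33.2%. Pyicoclip drew 2 intervals, at 39845855 to 39847106 with a score of 215 and at 39847123 to 39848338 with a score of 229, which ranked second and first of its list. Both lack a strand, and the first began before the span while the second ended after it. PIPE-CLIP drew 3 clusters, scoring 310 at 39846389 to 39846938, 50 at 39846973 to 39847114 and 776 at 39847129 to 39848237, against a list median of 14. The gap between the last 2 PIPE-CLIP clusters and the gap between the 2 Pyicoclip intervals overlapped.

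CIMS, which places 41-nt peaks on crosslink-induced mutation sites, put 15 peaks on Rn18s-rs5, with scores from 27 through a median of 93 to 184. The highest stood at 39846467 to 39846507, the next at 39847309 to 39847349 with 137 and the third at 39846625 to 39846665 with 124. Of the 15, 14 scored above the median of the list, 27, and the remaining peak was at 27. The 15 sites were spread over the span and not gathered at a single point, but none lay in its first 52 nt or more than 1628 nt after its start. Piranha gave 10 peaks, with scores from 10.25 through 19.18 to 40, the highest at 39847181 to 39847240. All 28 stranded peaks of the span were on the plus strand.

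Outside the span, 14 further peaks lay between 39842992 and 39848460, all on the plus strand and none from CIMS. The 11 PIPE-CLIP clusters among them scored 10 to 44, with a median of 23, the 2 Piranha peaks 10 and 11, and the Pyicoclip peak 20. The nearest to the edge was a PIPE-CLIP cluster of 27 at 39846193 to 39846378, which overlapped the span by 25 nt but had its midpoint outside. Each PIPE-CLIP cluster inside the span thus scored above every cluster just outside it. The margin was small for the lowest inside, 50, against the highest outside, 44. Those inside were 142 to 1109 nt wide, and scores were not adjusted for width.

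**Figure D2:**
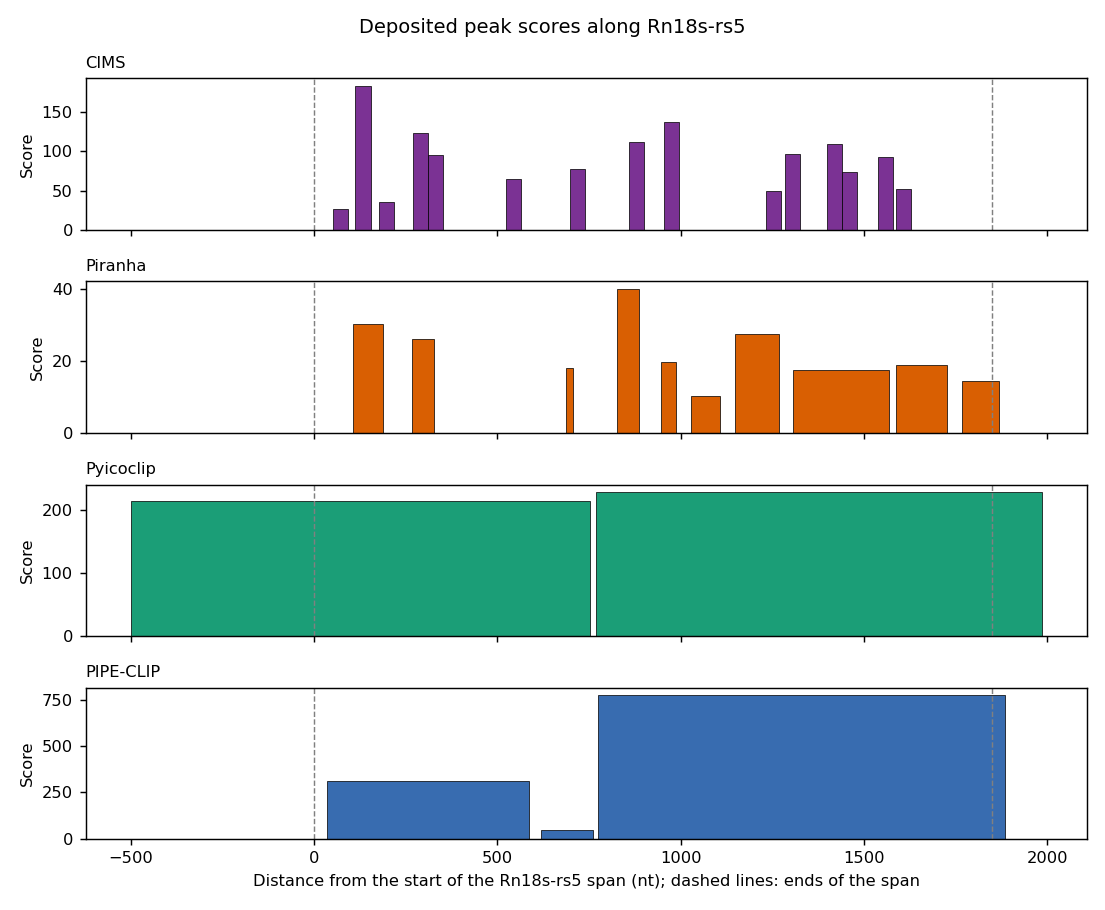
Deposited scores of peaks along Rn18s-rs5 in 4 panels, 1 per list. The x axis is the distance in nt from the start of the span, bar width is the peak width and bar height the score in that list; the 15 CIMS peaks reach 184 near the start, while the largest PIPE-CLIP cluster, 776, covers the later part of the span.

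Piranha scores need a caution at such wide peaks. All 1417 Piranha widths were multiples of 20 nt, and the score times the number of 20-nt steps was whole, within 0.001, in all 1417 peaks, as it would be for a mean over steps. Of the 68 Piranha scores that were not whole numbers, 11 belonged to members. Multiplied by their steps, the Rn18s-rs5 peaks ran from 18 through 99 to 226. The 260-nt peak at 39847661 to 39847920, listed at 17.4, had the highest product. Of the Piranha peaks of members, 14 of 26 were wider than 20 nt (53.8%, 35.5 to 71.2), against 105 of 1391 other Piranha peaks (7.55%, 6.27 to 9.06). Rn18s-rs5 weighed on this share: without it, 5 of 16 were wider than 20 nt (31.2%). Wide Piranha peaks were also found on the mitochondrial chromosome, where 37 of 54 exceeded 20 nt (68.5%). No test was run on these shares, since peaks of a span are not independent.

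n-R5s109 (gene 115487076, chromosome 8, 123554060 to 123554178) is a 119-nt gene of 5S ribosomal RNA, the small RNA of the large subunit. Its 2 Piranha peaks scored 87 at 123554061 to 123554080 and 60 at 123554121 to 123554140, ranks 1 and 5 of that list. The Pyicoclip peak, 123554053 to 123554183, scored 89 and covered the whole gene. The PIPE-CLIP cluster, 123554057 to 123554176, scored only 19, rank 691 of 3257. All 4 peaks were on the minus strand. Read on that strand, the Piranha peaks covered bases 39 to 58 and 99 to 118 of the gene, so a gap of 40 nt lay between them.

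Other copies were compared. Of 48 rRNA-type genes within 100 kb of n-R5s109, 3 held a peak (n-R5s109, n-R5s115 and n-R5s136), a share of 6.25% beside 5.17% of all annotated spans. The peaks of n-R5s115 scored 11 in Piranha, 24 in Pyicoclip and 15 in PIPE-CLIP. Those of n-R5s136 scored 62 in CIMS, 66 in Pyicoclip and 77 in PIPE-CLIP, with none in Piranha. The 2 strongest copies of the cluster therefore differed in which caller ranked them high: n-R5s109 led the Piranha list and had no CIMS peak, while n-R5s136 had a CIMS peak and none in Piranha. The sequences of the copies were not compared, so peaks of this cluster are uncertain as to the copy.

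Over the whole genome, 81 genes were named n-R5s or typed as nuclear rRNA, and 15 of them held 38 peaks. A peak was held by 13 of 69 genes named n-R5s (18.8%) and 9 of 63 nuclear rRNA-type genes (14.3%). Some genes are in both sets, and the share over all annotated spans was 5.17%. LOC115490001, an rRNA-type gene of 119 nt on chromosome 4 inside the span of Tmem38b, was the only rRNA-type gene outside the mitochondrion with peaks in all 4 lists, scoring 13 in CIMS, 41 in Piranha, 158 in Pyicoclip and 64 in PIPE-CLIP. It was not among the 10 members, and in Pyicoclip and PIPE-CLIP it scored higher than n-R5s109. n-R5s2 scored 16, 26 and 16 in Piranha, Pyicoclip and PIPE-CLIP, and n-R5s28 scored 10, 20 and 10. n-R5s195 scored 20 in both Piranha and Pyicoclip, n-R5s151 10 and 13, and LOC115488082 10 in both. Of 18 n-R5s genes typed as pseudogenes 6 held peaks (33.3%). Among them n-R5s71 was the only one in 3 lists, with scores of 13, 14 and 10. The Piranha peaks of these genes did not all fall on the same part of the span, although several overlapped between copies. For example, the peak of n-R5s151 began at base 9 and that of n-R5s2 at base 11. Piranha starts there stood on 20-nt steps of the chromosome, so the base where a peak begins depends partly on those steps. Both CIMS peaks lay in the first part of the span, from base 27 to 67 in LOC115490001 and from base 12 to 52 in n-R5s136.

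**Figure D3:**
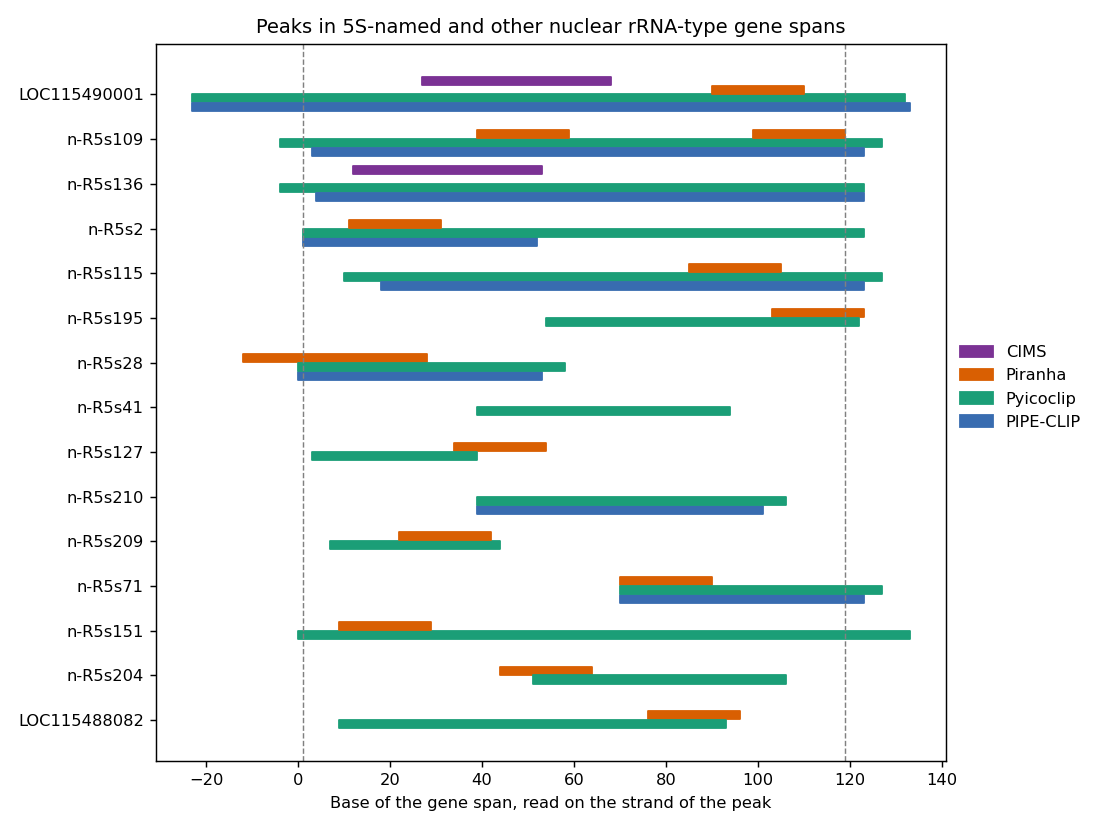
Position of peaks in the 15 nuclear rRNA-type or n-R5s spans that held a peak, ordered by highest score. The x axis is the base of the span read on the strand of the peak (bases of n-R5s136 from the plus strand for its Pyicoclip peak, which has no strand), dashed lines mark bases 1 and 119 and colour gives the list; Pyicoclip has a bar in all 15 and CIMS in 2.

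Both mitochondrial ribosomal RNA genes also held peaks, mt-Rnr2 with 23 and mt-Rnr1 with 9, and neither had one in Pyicoclip. Their best PIPE-CLIP scores were 635 and 513, below the 776 of Rn18s-rs5.

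At Mir6240 (gene 102466620, chromosome 5) the Piranha peak scored 13.7, the Pyicoclip peak 26, the PIPE-CLIP cluster 16 and the CIMS peak 16, of which only the Pyicoclip peak was in the best-scoring 10% of its list. All 4 were on the plus strand, that of the gene, and all 4 lay inside the hairpin. Piranha, Pyicoclip and PIPE-CLIP covered all 26 bases of the mature sequence, and CIMS covered 24. The nearest peak outside it, from Pyicoclip, lay 100 nt before the hairpin and scored 14.

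At Mir6236 (gene 102465959, chromosome 9, 110281287 to 110281409) Pyicoclip listed 3 nested peaks, each with a score of 151, tied at rank 7, and each ending at 110281370. They began 43, 33 and 18 nt before the annotated hairpin. Each covered 18 of the 19 bases of the mature sequence. The Piranha peak scored 18 and covered 8 of the 19, and the PIPE-CLIP cluster, 110281267 to 110281342 with a score of 51, covered 0. At both loci the Pyicoclip peaks thus took in nearly all or all of the mature sequence, while the PIPE-CLIP cluster covered it at Mir6240 and missed it at Mir6236. All 5 peaks of Mir6236 were on the plus strand, that of the gene.

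Lars2 (gene 102436, chromosome 9, 123366927 to 123462675) encodes the leucyl-tRNA synthetase of mitochondria. Its 9 peaks lay within 369 nt, 0.385% of a span of 95749 nt, and began after 99.1% of the gene in its own direction. The main site, 123461884 to 123462190, held 4 CIMS peaks scoring 22, 158, 73 and 52 from its start to its end, a Piranha peak of 18.2 that was 180 nt wide, a Pyicoclip peak of 177 and a PIPE-CLIP cluster of 157. The Pyicoclip peak and the PIPE-CLIP cluster shared their first base. A smaller site of 61 nt just before it held a Piranha peak of 10 and a PIPE-CLIP cluster of 11. All 9 peaks were in the sense of the gene. The nearest peak outside the span was 2125372 nt away.

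Cmss1 (gene 66497, chromosome 16, 57301999 to 57606867), named as a relative of a yeast small-subunit factor, and Filip1l (gene 78749, 57353277 to 57572804), named for its likeness to a filamin A-interacting protein, run in opposite directions over the same DNA. Their 8 shared peaks lay within 582 nt, 0.191% of Cmss1 and 0.265% of Filip1l. The main site, 57391373 to 57391682, held CIMS peaks of 44 and 63, a Piranha peak of 15, a Pyicoclip peak of 88 and PIPE-CLIP clusters of 131 and 64. PIPE-CLIP and Pyicoclip ranked it 16 and 19 in their lists, while the Piranha peak ranked 278. A second site, 57391101 to 57391189, scored 11 in both Piranha and Pyicoclip. All 8 peaks were on the minus strand, so they were in the sense of Cmss1 and antisense to Filip1l.

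Gm36876 (gene 102640929, chromosome 11, 108980739 to 109034783) is a long non-coding RNA gene. Its 9 peaks formed 1 unbroken locus of 472 nt, 109011636 to 109012107. CIMS had a peak of 122 there, rank 7, Pyicoclip a peak of 126, rank 12, and PIPE-CLIP clusters of 223, rank 11, and 52. The 5 Piranha peaks scored 22.9, 25, 18, 22.75 and 12 in order along the chromosome. The CIMS peak lay at the low-coordinate edge, which is the 3′ edge on the strand of the peaks. All 9 peaks were on the minus strand and the gene is annotated on the plus strand, so none was in the sense of Gm36876.

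Gm15564 (gene 102639045, chromosome 16, 35966751 to 35983329) is a long non-coding RNA gene on the minus strand. All 5 of its peaks lay within 245 nt, 35981582 to 35981826, beside the start site shown above. Piranha gave peaks of 72, rank 2 of its list, and 10, both on the minus strand. The Pyicoclip peak scored 153, rank 6, with no strand. PIPE-CLIP split the same stretch into a plus-strand cluster of 11 at 35981582 to 35981661 and a minus-strand cluster of 55 at 35981662 to 35981779. Gm15564 was the only one of the 9 distinct loci with stranded peaks of both strands.

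Gm19951 (gene 105245440, chromosome 12, 99643096 to 99647221) is a long non-coding RNA gene on the plus strand. Its CIMS peak scored 13, rank 128 of 169, its Piranha peak 20, its Pyicoclip peaks 14, 19 and 39 and its PIPE-CLIP clusters 26, 33 and 15. They fell into 3 sites within 622 nt, and only the last, 99645447 to 99645678, had peaks of all 4 lists. The 6 stranded peaks were in the sense of the gene, and the other 2 had no strand. The CIMS and Piranha peaks of this site did not overlap.

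The orientation of peaks was not used in choosing the members. Outside the members and the mitochondrial chromosome, and over genes with a known direction, the share of stranded peaks antisense to the gene that held them was 29.8% in CIMS (18.7 to 44.0), 40.3% in Piranha (36.7 to 43.9), 31.2% in Pyicoclip (28.6 to 34.0) and 6.31% in PIPE-CLIP (5.41 to 7.34). Over the 8 members with a direction, 10 of 15 pairs of a span and a PIPE-CLIP cluster were sense and 5 antisense. In CIMS 8 pairs were sense and 3 antisense, in Piranha 9 and 7, and in Pyicoclip 8 and 3. The antisense PIPE-CLIP pairs were both clusters of Gm36876, both of Filip1l, which are sense to Cmss1, and 1 of the 2 of Gm15564. Of the other 26 spans with peaks in all 4 lists, direction was available for 15, and 3 of these (Zc3h7a, Arhgap21 and Stard9) had only antisense stranded peaks. Being antisense was therefore not limited to Gm36876 and Filip1l. Whether such peaks come from the host gene was not tested.

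Strand shares of the members leaned on Rn18s-rs5. Minus-strand peaks were 3 of 24 in CIMS (12.5%, 4.34 to 31.0), 11 of 26 in Piranha (42.3%, 25.5 to 61.1), 4 of 10 stranded peaks in Pyicoclip (40.0%, 16.8 to 68.7) and 6 of 17 in PIPE-CLIP (35.3%, 17.3 to 58.7). Without Rn18s-rs5 the CIMS share was 33.3% and the Piranha share 68.8%. All other peaks of the lists were on the minus strand in 43.4%, 50.4%, 48.5% and 87.3%, in the same order. No test was run on these shares, because the member peaks come from 9 loci. A low minus-strand share in PIPE-CLIP was not limited to the members: it was 27.5% for mitochondrial clusters and 56.7% for those in genes of small nucleolar and nuclear RNAs. Peaks with no strand made up 5 of 15 member peaks in Pyicoclip (33.3%) and 132 other Pyicoclip peaks (6.43%), and the 5 belonged to Rn18s-rs5, Gm15564 and Gm19951.

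Callers met on the same bases at some loci and only on the same neighbourhood at others. Of the 89 bases under any peak at Mir6240, 46.1% were under peaks of all 4 lists. At Lars2 the share was 16.6% of 368 bases, at Rn18s-rs5 15.4% of 2476 and at Gm36876 6.99% of 472. At Cmss1 and Gm19951 it was 0, although each had a merged site with peaks of all 4 lists, because the CIMS and Piranha peaks there lay apart. Of the 24 CIMS peaks, all 24 overlapped a Pyicoclip peak and a PIPE-CLIP cluster on the same strand, a peak with no strand counting as either, and 17 overlapped a Piranha peak (70.8%, 50.8 to 85.1). Read the other way, 11 of the 26 Piranha peaks overlapped a CIMS peak (42.3%, 25.5 to 61.1). Without Rn18s-rs5 these shares were 44.4% and 18.8%. Presence in several lists helped to choose the members, so the overlaps are only a description. The same shares for other peaks of the lists are not given here.

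**Figure D4:**
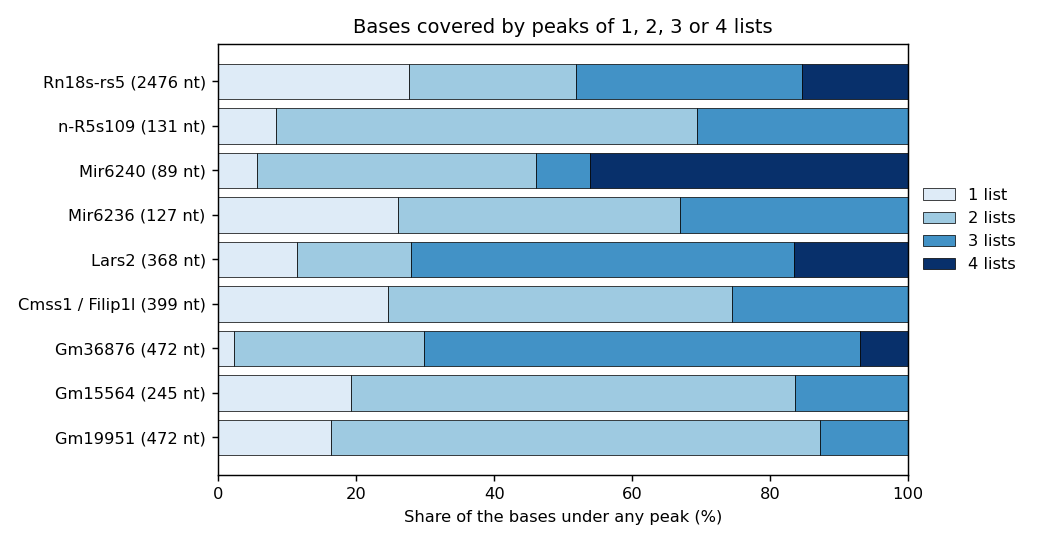
Share of the bases under any peak of a locus (x axis, %) that lie under peaks of 1, 2, 3 or 4 lists, with the number of such bases beside each name. Mir6240 has the largest share in 4 lists, 46.1%, and 5 of the 9 loci have no base in 4 lists. Among these 5, n-R5s109, Gm15564 and Mir6236 have no CIMS peak, so no such base was possible there.

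Names of CIMS peaks carry a second number, m, beside the score k. In that method k counts the reads over a site and m those with the mutation. Over the 24 member peaks, m ran from 3 through a median of 4 to 11 and was at the lowest listed value of 3 in 10 of them. As a share of k it ran from 2.46% at Gm36876 through a median of 6.45% to 25.0% at the Cmss1 site with k of 44 and m of 11. The other 145 CIMS peaks had a median of 18.5%, but also a lower median k, 21 against 73.5. Since m was never under 3, the share cannot be low where k is low, and the 2 sets are not compared further. Along Rn18s-rs5 the share ran from 2.75% to 13.5%, the highest at 39847795, so the strongest site by k, with 3.80%, was not the strongest by share.

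Ranks are a description of what chose the members. In the best-scoring 10% of each list were 9 of 24 member peaks in CIMS, 12 of 26 in Piranha, 12 of 15 in Pyicoclip and 12 of 17 in PIPE-CLIP. Without Rn18s-rs5 the CIMS count was 2 of 9. Members held 7 of the 10 highest Pyicoclip ranks and 7 of the 10 highest CIMS ranks, against 3 in Piranha and 2 in PIPE-CLIP. Of the 7 in Pyicoclip, 3 were the nested peaks of Mir6236, which share their score. The order of loci differed between lists. Rn18s-rs5, Gm36876 and Lars2 had a best peak above the percentile of 89.0 in each list, n-R5s109 ranked first in Piranha but at the percentile of 77.1 in PIPE-CLIP, and Mir6240 stood at 92.8 in Pyicoclip, 68.5 in Piranha, 64.5 in PIPE-CLIP and 34.9 in CIMS.

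**Figure D5:**
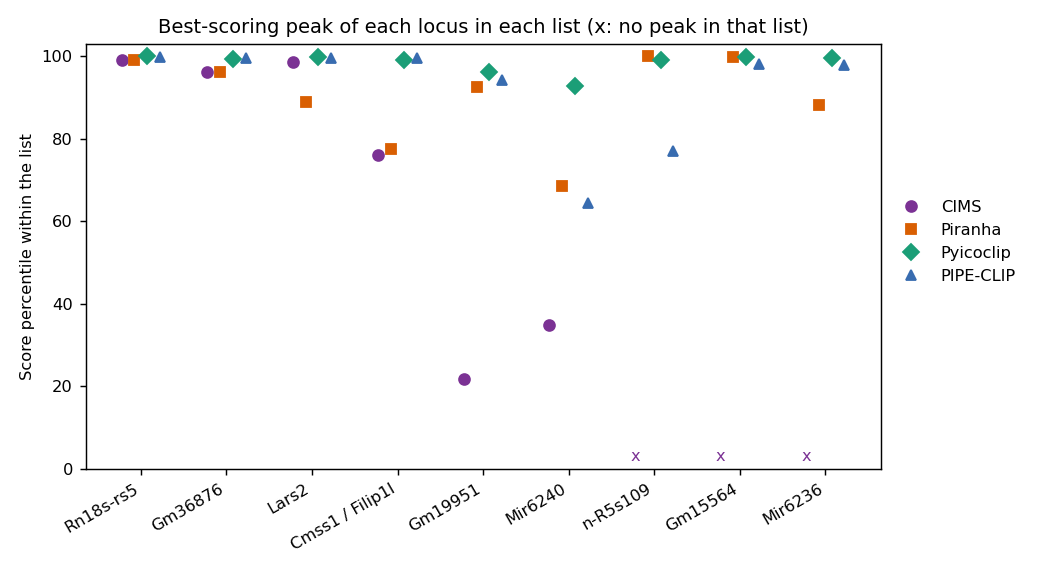
Score percentile within its own list (y axis, 100 being the highest) of the best peak of each of the 9 loci, with a symbol and colour for each list and an x where a list has no peak. Rn18s-rs5 lies above 99.0 in all 4 lists, while Gm19951 and Mir6240 fall to 21.6 and 34.9 in CIMS.

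Among spans in all 4 lists, those outside the members with a high mean percentile of their best peaks included the zinc finger gene Zc3h7a with 94.9, the GTPase-activating protein gene Arhgap21 with 90.3, the imprinted, retrotransposon-derived gene Peg10 with 83.5, and the amino acid transporter gene Slc38a2 with 83.4. Rn18s-rs5 had 99.5, Gm36876 97.9, Lars2 96.7, Cmss1 88.1, Gm19951 76.2 and Mir6240 65.2. Zc3h7a and Arhgap21 held their peaks in a single site of 306 and 138 nt, as Gm36876 did in 472 nt. Lars2, Cmss1 and Filip1l held 2 sites each and Gm19951 held 3, whereas Peg10 and Slc38a2 held 13 and 10. The 5 members over 4 kb in all 4 lists, of which Cmss1 and Filip1l share their peaks, held them within 369 to 622 nt. Of the 22 other spans over 4 kb, 9 held theirs within 1 kb. A compact site in a long span was thus found outside the members too.

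Genes that make ribosomal RNA held peaks at a share near that of other genes. Of 50 genes of ribosomal RNA synthesis and processing, 4 held a peak (8%), against 9.77% of all protein-coding genes. Npm1, a nucleolar chaperone gene, had best scores of 17.5 in Piranha, 68 in Pyicoclip and 37 in PIPE-CLIP. Ncl, the gene of nucleolin, had 34 in Pyicoclip and 48 in PIPE-CLIP. Ubtf, a factor of RNA polymerase I, and Bms1, a factor of small-subunit assembly, had PIPE-CLIP clusters alone. Of 18 small RNAs, chosen as parts of ribosomal RNA processing together with the abundant 7SK and 7SL RNAs, 5 held peaks (27.8%), against 5.17% of all annotated spans. Rnu3a, the U3 RNA that guides the first cuts of the precursor, scored 26 in CIMS, 10 in Piranha, 30 in Pyicoclip and 44 in PIPE-CLIP, and Rn7sk 49, 11.3, 53 and 56. Rpph1, the RNase P RNA, scored 13 in Piranha, 16 in Pyicoclip and 44 in PIPE-CLIP. Rmrp, the RNA of RNase MRP, scored 22 in Pyicoclip and 109 in PIPE-CLIP, and Snord118, the U8 RNA, 12 in both.

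The members were set beside 2 other RNA classes, with no test. The mitochondrial chromosome held 135 peaks and genes of small nucleolar and nuclear RNAs 88. In the best-scoring 10% of PIPE-CLIP were 70.6% of member clusters, 55.0% of 40 mitochondrial clusters and 16.7% of 30 in small RNA genes. Scores helped to choose the members, so nothing is read from the difference between these shares. In Pyicoclip the median width was 209 nt for members, 90 nt for small RNA genes and 29 nt for all peaks outside the members, and there was no mitochondrial peak. Without Rn18s-rs5 the median width of the members was 131 nt in Pyicoclip, and in Piranha it was 20 nt in place of 50 nt.

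Sequences under the peaks of most loci were not compared, since those at hand were mainly gene starts far from the peaks. Among the 8 members with a start-site window or microRNA sequence, none of the 28 pairs shared a run of 16 bases on either strand. Only at Mir6240, Mir6236 and Gm15564 do peaks fall on these sequences. For the other members the comparison says nothing of the sequence under the peaks.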

How the data were processed

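Peak lists of 3 AGO2 HITS-CLIP libraries of P19 cells were used. Tools named in the submitters' processing notes are cutadapt and Novoalign, with the build mm10. For tool versions, caller settings and the pooling of libraries: not given in the sources used here. The authors deposited 4 lists with a score per peak, which has no stated unit and served for ranks inside its own list, for a product with 20-nt steps in Piranha and, in CIMS, as the k to which m is set. The other deposited value is m, from the CIMS peak names. The lowest score was 10 in each list, and weaker peaks were not analysed here.

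Spans and types came from a RefSeq table of GRCm38.p6, and directions and sequences from its start-site and miRNA tables. All 10 members matched the gene table. No test was run, since the lists hold no value per library. Shares have 95% Wilson intervals. Percentiles use mid-ranks, and tied ranks take the best rank. Sites are overlapping peaks merged with strand ignored. The members and gene lists were chosen with earlier results of these data known. Named genes were the members, up to 12 genes of each gene list with peaks in at least 2 peak lists, and the 5 most similar spans, of which 1 is not reported here. The gene n-R5s71, Lin28b, Pou5f1, Ubtf, Bms1, Stard9 and Tmem38b were named after their values were seen. The code was tested on simulated data. Python 3.11.15, numpy 2.4.6, pandas 2.3.3, scipy 1.17.1 and matplotlib 3.10.9 were used.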

Additional observations from a re-analysis of the deposited data

How the results depend on the processing

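Most counts moved by less than 1.5 times and most shares stayed within their own intervals. Many of these intervals are wide. The peak counts without Filip1l could not move, because Cmss1 holds the same peaks. With only peaks wholly inside a span, members in Pyicoclip fell to 9. With a score of at least 20, members in Piranha fell to 11 and spans in all 4 lists to 2. Where at least 50% of a peak had to be covered, CIMS in Piranha came to 50.0%, Piranha in CIMS to 19.2%, Pyicoclip in CIMS to 0, Pyicoclip in Piranha to 40.0%, PIPE-CLIP in CIMS to 11.8% and PIPE-CLIP in Piranha to 35.3%. All CIMS peaks are 41 nt wide, so the shares of wider peaks in CIMS under that rule depend on peak width. The following alternatives were chosen after seeing the data. Without Rn18s-rs5, members were 9 in CIMS and 16 in Piranha, minus-strand shares 33.3% and 68.8%, the share of Piranha peaks over 20 nt 31.2%, and the overlap of CIMS in Piranha and of Piranha in CIMS 44.4% and 18.8%. With Piranha scores multiplied by 20-nt steps, 69.2% of member peaks were in the best-scoring 10%, against 46.2% as listed. None of the 28 pairs of table sequences shared a run of 12 or 20 bases. The sequence of Mir6236, 19 nt long, could not hold a run of 20, so its pairs could not share one. Leaving out a library could not be done, and no paired analysis was possible because the lists hold no value per library. The depth is unknown, so a locus missing from a list may be below its lowest score.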
